A study of Mus musculus with 18 samples.

Results

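Transcripts of 33 genes of glycolysis, the pentose phosphate pathway and lactate handling were followed in the spleens of diabetic and non-diabetic mice. The genes were taken by symbol from the deposited expression table, which has 19326 lines. All 33 were found, and all 33 passed the filter for testing (an RPKM of at least 1 in at least 3 libraries). RPKM counts the reads of a gene relative to its length and to the mapped reads of the library; it is a level per length, so that different genes can be set side by side.

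The animals were ICR mice, an outbred strain, aged 10 weeks, and the study used males. The table holds 18 spleen libraries, 3 in each of 6 groups. Con mice were controls, which the study's methods describe as given a regular diet and saline. A10 mice were dosed at 10 mg per kg with AOS, alginate oligosaccharide, which is cut from a seaweed polysaccharide. STZ mice received streptozotocin, a toxin taken up by the insulin-making beta cells of the pancreas, whose loss gives a model of type 1 diabetes. STZ-A10 mice received STZ and AOS at the same dose. A10-FMT and Con-FMT mice also received STZ and then an oral microbiota transplant (FMT), from donors that had been given AOS or from control donors. By the study's methods the transplanted material was small intestinal content pooled within each donor group, so the mice of a group shared 1 inoculum. Con and A10 are the groups without STZ. The libraries are bulk RNA, in which fewer cells of a type and less RNA per cell cannot be told apart. Since the labels leave unstated whether each library came from its own animal, the p-values measure only the spread between libraries.

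Glycolysis splits glucose into pyruvate in the cytosol and yields a small amount of ATP without oxygen. Lactate dehydrogenase turns pyruvate into lactate, which leaves the cell through monocarboxylate transporters, and the pentose phosphate pathway branches off early to make NADPH and ribose. Red blood cells live on glycolysis because they lose their mitochondria, neutrophils rely on it heavily, and lymphocytes raise it when they divide, so the spleen holds several cell types that differ in these enzymes.

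The libraries differed in composition. Between 10.4% and 42.7% of a library's total RPKM fell on the 9 globin genes. An RPKM of 1 was reached by 11532 to 12893 genes. Among the markers of splenic cells, the summed RPKM of 9 B cell markers ran from 603 to 2804, of 10 T cell markers from 82.9 to 469 and of 13 red pulp macrophage markers from 661 to 1516. Several libraries stood apart. In A10-FMT replicate 3, 15 erythroid markers summed to 9646 RPKM, against 1960 to 5997 in the other 17 libraries, and the B cell and T cell sums were the lowest of all. In Con replicate 1, 15 neutrophil markers summed to 16313 RPKM, against 478 to 4465 in the others. A10-FMT replicate 2 held 19122 RPKM of 11 exocrine pancreas markers, against 156 and 1000 in the other A10-FMT libraries, and Con replicate 2 held 300.31 RPKM of 10 testis germ cell markers, against a median of 2.31 over all libraries. The deposited table gives no read counts, and the depth of each library is unknown. The 33 genes together took 0.311% to 0.487% of the summed RPKM.

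The levels spanned a wide range, and each enzymatic step was led by a single isoform in most cases. Gapdh, the enzyme that makes the first NADH of the pathway, was the highest at a mean of 880 RPKM over the 18 libraries. Aldoa (aldolase) followed at 250, Ldha (lactate dehydrogenase) at 245, Taldo1 (transaldolase of the pentose phosphate pathway) at 237, Pkm (pyruvate kinase) at 181 and Eno1 (enolase) at 170. At the other end were Hk2, an inducible hexokinase, at 1.95 and Aldoc, the aldolase best known from brain, at 1.71. Aldoc reached an RPKM of 1 in 17 libraries and each of the other 32 genes in all 18. The Gapdh and Eno1 levels are uncertain, since 41 and 3 other annotated genes carry at least 500 bases that are at least 95% identical to their transcripts, and the reads of such copies may have been split.

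**Figure D1:**
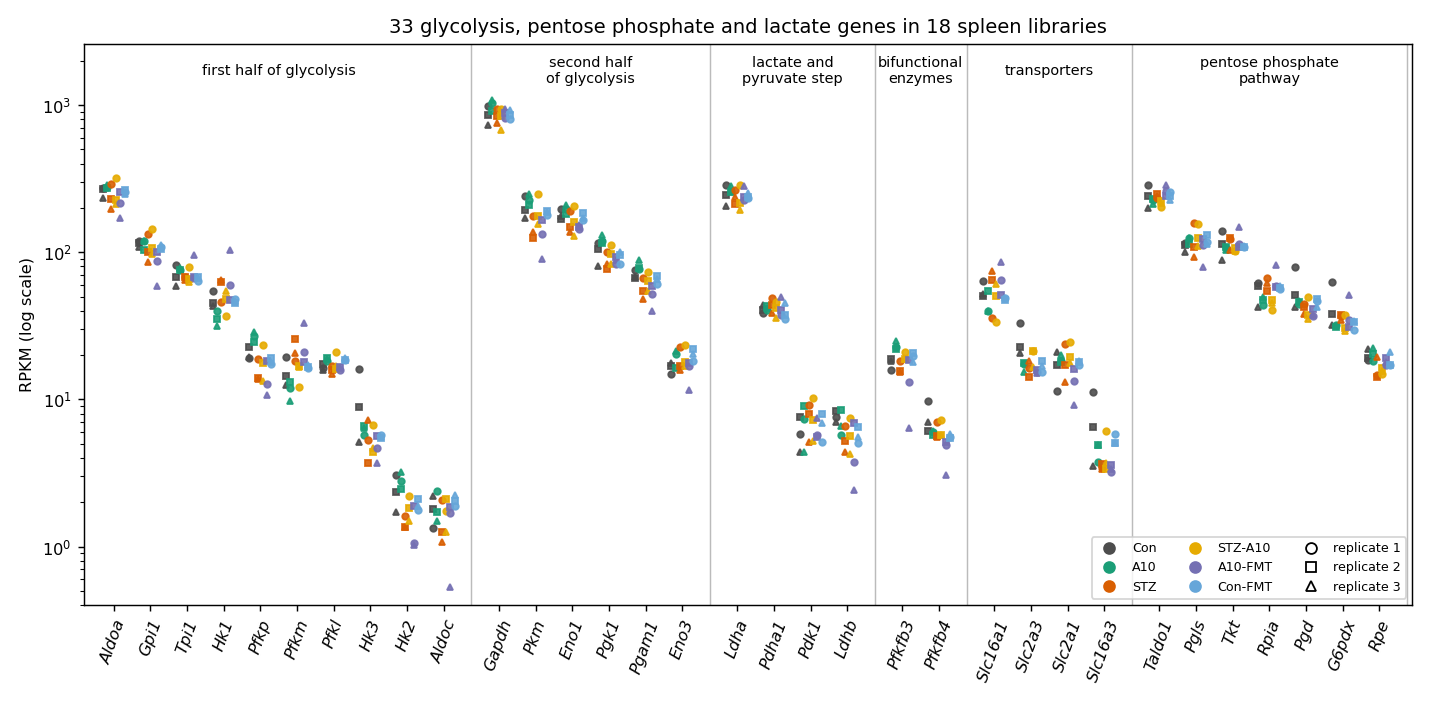
RPKM (log scale) of each of the 33 genes, grouped by role and ordered by mean level within a role, with a point for each of the 18 libraries (colour, group; shape, replicate number). Gapdh lies above every other gene, and A10-FMT replicate 3 holds the lowest value of 13 genes, with the lowest Pkm (90.3), Pfkfb3 (6.37) and Aldoc (0.53) and the highest Hk1 (104) and Pfkm (33.1).

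Within the steps, Hk1 led the hexokinases at 50.8 RPKM, with Hk3 at 6.19. The phosphofructokinases Pfkp, Pfkm and Pfkl stood close together at 18.8, 17.4 and 17.3 RPKM. Gpi1 (107), Tpi1, the isomerase of the triose phosphates (71.0), Pgk1 (98.1) and Pgam1 (64.6) were single leading genes of their steps, and Eno3, the muscle enolase, lay at 18.2. Around pyruvate, Ldhb, the heart-type lactate dehydrogenase subunit, lay at 5.98, Pdha1 at 41.6 and Pdk1 at 6.79. The bifunctional enzymes that set the activator of phosphofructokinase were Pfkfb3 (18.2) and Pfkfb4 (5.97). Of the transporters, Slc16a1 stood at 53.8, Slc2a3 at 18.4, Slc2a1 at 17.4 and Slc16a3 at 4.67 RPKM. In the pentose phosphate pathway, the lactonase Pgls (118) and the transketolase Tkt (112) followed Taldo1, ahead of Rpia (55.0), Pgd (44.9), G6pdx (36.1) and the epimerase Rpe (18.01).

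The genes also differed in how far they varied. Pdha1, a subunit of the pyruvate dehydrogenase complex, and Pfkl, the liver-type phosphofructokinase, had the narrowest range, 1.40-fold between the lowest and the highest library. Gapdh varied 1.58-fold, Ldha 1.48-fold and Taldo1 1.43-fold. The widest ranges belonged to Aldoc (4.53-fold), Hk3 (4.34-fold), Pfkfb3 (3.89-fold), Ldhb and Slc16a3 (3.49-fold each), Pfkm (3.38-fold) and Hk1 (3.29-fold). A10-FMT replicate 3 held the lowest value of 13 genes and the highest of 7, and Con replicate 1 and STZ-A10 replicate 1 held the highest of 7 each. A10 replicate 3 held the highest value of 9.

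Gapdh, Ldha, Aldoa and Taldo1, each the leading gene of its role, overlapped between most groups. Gapdh was 982, 852 and 731 RPKM in Con, 1025, 911 and 1075 in A10, 940, 849 and 761 in STZ, 941, 843 and 682 in STZ-A10, 820, 890 and 947 in A10-FMT and 809, 856 and 924 in Con-FMT. Every group overlapped Con. Ldha was 285.83, 245.19 and 205.41 in Con, 260.12, 256.19 and 281.27 in A10, 265.49, 213.95 and 237.06 in STZ, 286.61, 215.15 and 193.03 in STZ-A10, 228.14, 237.31 and 280.32 in A10-FMT and 233.33, 238.76 and 251.57 in Con-FMT, and here too every group lay inside or across the Con range. Aldoa ran from 171.21 in A10-FMT replicate 3 to 317.73 in STZ-A10 replicate 1, with group means between 215 and 277. Taldo1 ran from 198.51 in Con replicate 3 to 284.57 in Con replicate 1, so the Con libraries spanned the values of all the others, with group means between 214 and 262. The F-test over the 6 groups gave adjusted p-values of 0.533 for Gapdh, 0.831 for Ldha, 0.48 for Aldoa and 0.374 for Taldo1 in limma. The leaders of the other roles, Pfkfb3 and Slc16a1, varied more. Pfkfb3 was 18.19, 15.6 and 15.42 RPKM in STZ and 20.94, 18.81 and 18.94 in STZ-A10, and its group means ran from 12.6 in A10-FMT to 23.1 in A10. Slc16a1 was 39.68, 54.51 and 39.98 in A10, 33.47, 50.16 and 60.7 in STZ-A10, 64.97, 51.48 and 85.87 in A10-FMT and 48.94, 47.38 and 48.79 in Con-FMT. Its group means ran from 44.7 in A10 to 67.4 in A10-FMT, and the F-test gave an adjusted p of 0.461.

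STZ was compared with Con to ask how diabetes altered the spleen. None of the 33 genes passed the adjusted threshold of 0.05 in limma, where 0.163% of the 12905 genes tested did. An unadjusted p under 0.05 was reached by 8 (24.2%), beside 11.1% of all genes. Of these 7 (21.2%, beside 6.44%) had lower values in STZ, namely Slc2a3, Slc16a3, Hk2, Hk3, Pkm, Pgd and Rpe, and Pfkm (3.03%, beside 4.63%) had higher ones. The libraries of the groups did not overlap for 5 genes (15.2%, beside 12.8% of all genes). Hk2, Ldhb, Pfkp, Pgam1 and Slc2a3 were each lower in STZ, where 7.07% of all genes were lower and 5.77% higher without overlap. The median log2 difference of the 33 genes was -0.13 and that of all genes tested -0.01, and 22 of the 33 lay below 0. Of the 10 genes of upper glycolysis (Hk1 to Tpi1) 8 lay below 0, with a median of -0.13, and of the 6 of lower glycolysis (Gapdh to Pkm) 5 did, with a median of -0.20.

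Among the transporters, Slc2a3 (chromosome 6, 122727809 to 122801640, minus strand), a high-affinity glucose carrier, had the smallest p. It was 16.41, 14.29 and 18.14 RPKM in STZ and 33.2, 22.52 and 20.71 in Con. Every STZ library lay below every Con library, with the highest value in the Con library that was rich in neutrophil markers. The log2 difference was -0.59 (SE 0.152, adjusted p 0.097), and -0.39 (adjusted p 0.218) without Con replicate 1. Without Con replicate 3 it was -0.72 and the adjusted p 0.0467. Slc16a3 (chromosome 11, 120948480 to 120960868, plus strand), the lactate exporter of strongly glycolytic cells, was 3.42, 3.63 and 3.36 RPKM in STZ and 11.14, 6.48 and 3.51 in Con. The Con libraries were scattered and the lowest of them lay among the STZ libraries. The log2 difference was -0.73 (SE 0.258, adjusted p 0.258), -0.38 without Con replicate 1 (adjusted p 0.478) and -1.09 without Con replicate 3 (adjusted p 0.0271). Slc2a1, the widely expressed glucose carrier, was 16.5 ± 4.81 RPKM (SD, n = 3) in Con and 18.02 ± 5.398 in STZ, a difference within the spread. Slc16a1, the widely expressed carrier of lactate and pyruvate, was 63.46, 50.61 and 52.2 in Con and 35.76, 64.86 and 74.81 in STZ. The STZ libraries enclosed the Con libraries on both sides.

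Among the enzymes of glucose phosphorylation, Hk2 (chromosome 6, 82725025 to 82774454, minus strand) was 1.61, 1.35 and 1.35 RPKM in STZ and 3.08, 2.35 and 1.73 in Con, with no overlap. The log2 difference was -0.46 (SE 0.164, adjusted p 0.265). Hk3, a hexokinase of myeloid cells, was 5.27, 3.69 and 7.19 in STZ and 16.03, 8.92 and 5.16 in Con, and its log2 difference of -0.70 (adjusted p 0.335) was -0.33 without Con replicate 1. The neutrophil marker sum was 16313, 4465 and 871 RPKM in these Con libraries and 729, 478 and 1853 in the STZ libraries, so Hk3 followed the same order within Con. The summed RPKM of 11 platelet and megakaryocyte markers was 830 to 2091 in Con and 243 to 724 in STZ, without overlap, and that of the exocrine pancreas markers was 23.2 to 1907 in Con and 1027 to 4693 in STZ. The part of neutrophil, platelet and pancreas RNA in these differences was not tested.

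Pfkm (chromosome 15, 98092589 to 98132451, plus strand) is the muscle-type phosphofructokinase that red cells also use. Among the 33 genes it alone had higher values in STZ at an unadjusted p under 0.05. It was 18.2, 25.85 and 20.62 RPKM in STZ and 19.42, 14.31 and 12.54 in Con, a log2 difference of 0.47 (SE 0.209, adjusted p 0.418). Con replicate 1, the Con library with the most erythroid marker RNA, lay inside the STZ range. STZ replicate 1 held less erythroid marker RNA (2425 RPKM) than any Con library, and its Pfkm lay above Con replicates 2 and 3. Pkm (chromosome 9, 59656368 to 59679375, plus strand), which makes pyruvate in the last step, was 175, 126 and 137 RPKM in STZ and 240, 193 and 171 in Con. The ranges met at 171 and 175, and the log2 difference was -0.46 (SE 0.209, adjusted p 0.421). Of the pentose phosphate genes, Pgd (phosphogluconate dehydrogenase, a source of NADPH) was 57.6 ± 19.2 RPKM in Con and 41.6 ± 3.21 in STZ, with 79.29 in Con replicate 1. The log2 difference of Pgd was -0.42 (adjusted p 0.371), and -0.16 without that library. G6pdx, the gate of the pathway, was 44.4 ± 16.5 and 36.3 ± 1.42. Its log2 difference of -0.22 turned to 0.05 without Con replicate 1.

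**Figure D2:**
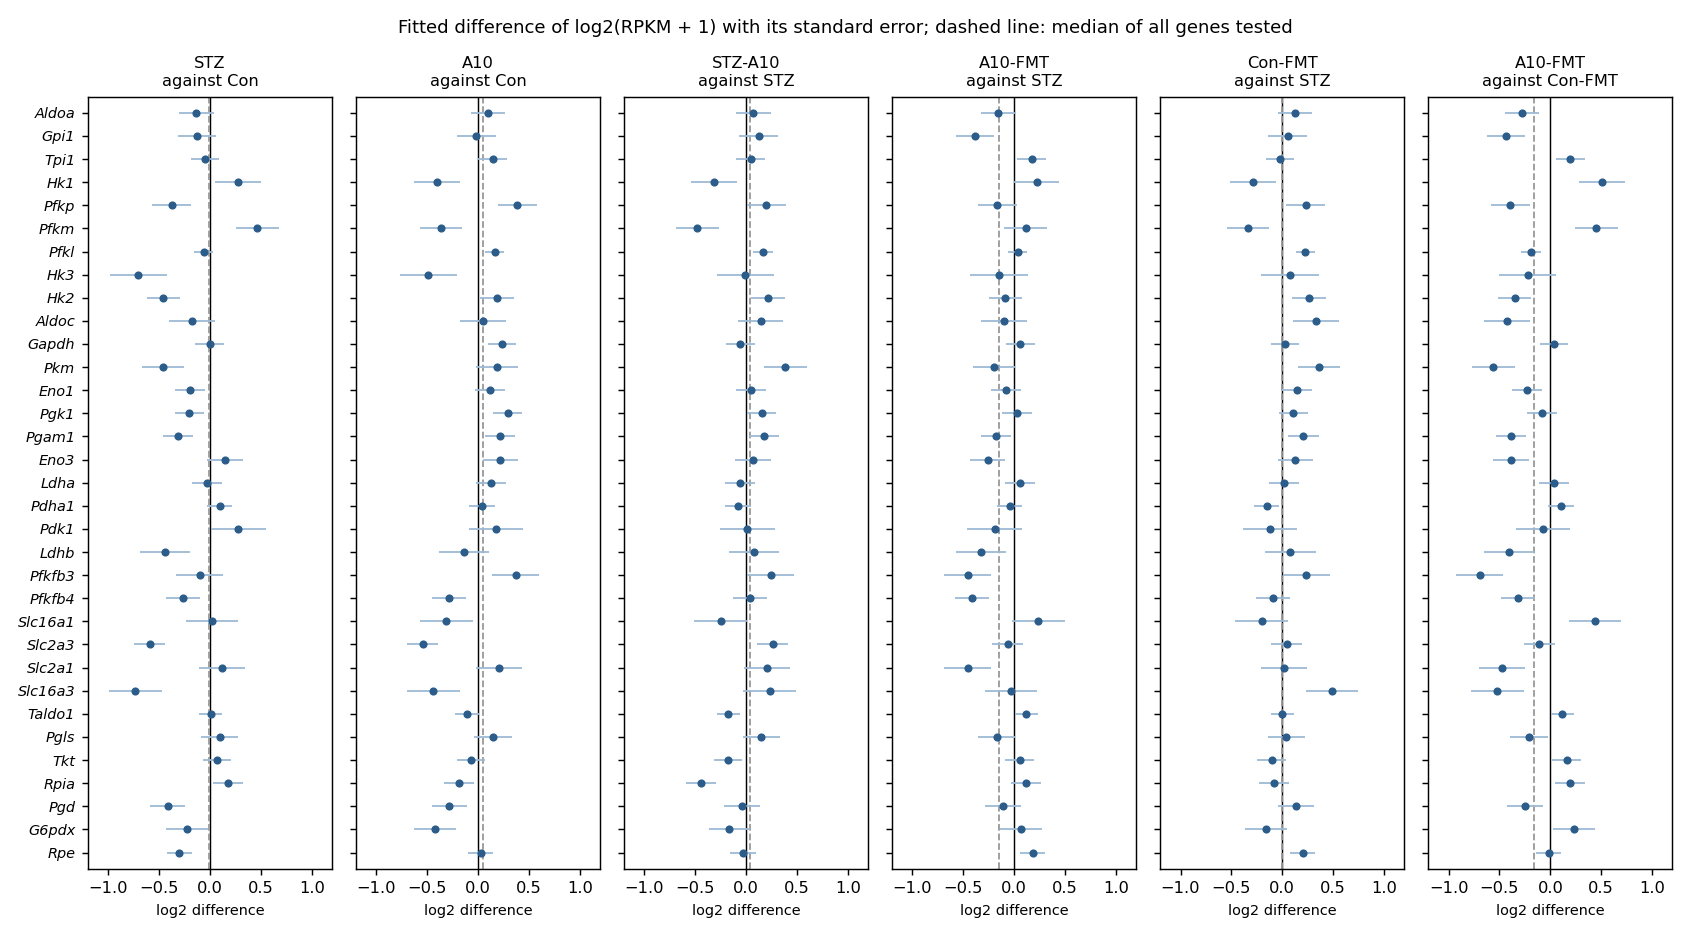
Fitted differences of log2(RPKM + 1) with standard errors (points and bars) for the 33 genes in the 6 comparisons of group pairs, and the median of all genes tested (dashed). The members scatter around that median, with the largest shifts at Slc16a3 and Hk3 (-0.73 and -0.70) in STZ against Con and at Pfkfb3 (-0.69) in A10-FMT against Con-FMT.

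AOS was compared with no AOS in mice without diabetes (A10 against Con). How AOS was given to the A10 and STZ-A10 mice is not given in the sources used here. None of the 33 genes passed in limma, and 0.00775% of all genes did. The one gene at an unadjusted p under 0.05 was Slc2a3, lower in A10 (3.03%, beside 5.25% of all genes, 3.56% higher and 1.68% lower). The libraries did not overlap for 7 genes (21.2%, beside 16.5%). Pfkfb3, Pfkl, Pfkp and Pgam1 were higher in A10 (beside 11.7% of all genes), and G6pdx, Hk1 and Slc2a3 lower (beside 4.81%). The median log2 difference was 0.05 in the 33 genes and 0.05 in all genes. Slc2a3 was 17.42, 17.66 and 15.39 RPKM in A10, close to its STZ levels and below every Con library. Its log2 difference was -0.54 (SE 0.152, adjusted p 0.46), and -0.34 without Con replicate 1. G6pdx was 31.79, 31.23 and 31.76 in A10, a tight group just below the lowest Con library at 31.92 (log2 difference -0.42, adjusted p 0.984). Without Con replicate 1, at 63.17, the log2 difference was -0.14.

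The 6 enzymes of lower glycolysis, from Gapdh to Pkm, all had fitted values above 0 in A10 against Con, from 0.12 to 0.29 on the log2 scale. Their median was 0.22 and none passed the threshold. Pgk1, which makes the first ATP of the pathway, was 120, 115 and 131 RPKM in A10 and 116, 105 and 81.1 in Con (log2 difference 0.29, SE 0.143, adjusted p 0.984). The lowest A10 library lay just under the highest Con library. Pfkfb3 (chromosome 2, 11471433 to 11554077, minus strand), which makes the activator of phosphofructokinase, was 22.72, 21.89 and 24.81 in A10 and 15.92, 18.88 and 18.2 in Con, with every A10 library higher. The erythroid marker sum was lower in A10 (2025 to 3085 RPKM) than in Con (3097 to 4973), without overlap. A covariate of erythroid level therefore cannot separate that level from group in this comparison. With the erythroid marker level of each library as a covariate, an analysis chosen after the data were seen, 3 of the 6 enzymes had values below 0 (Eno1 -0.03, Eno3 -0.02 and Pkm -0.05), and Pgam1 was 0.04, Gapdh 0.17 and Pgk1 0.20. Pfkfb3 was then 0.13 (SE 0.193) and Slc2a3 -0.53 (SE 0.163, adjusted p 0.668).

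AOS was also compared within diabetic mice (STZ-A10 against STZ). Again none of the 33 genes passed, beside 0.00775% of all genes. Rpia and Pfkm, both lower in STZ-A10, were the 2 genes (6.06%) at an unadjusted p under 0.05, beside 2.93% of all genes, 1.65% lower and 1.28% higher. The libraries did not overlap for 4 genes (12.1%, beside 8% of all genes). Pfkm, Rpia and Taldo1 were lower (beside 4.71%) and Pfkfb3 higher (beside 3.29%). Rpia (chromosome 6, 70765720 to 70792232, minus strand), ribose 5-phosphate isomerase, was 40.34, 47.17 and 45.38 RPKM in STZ-A10 and 66.47, 54.47 and 61.37 in STZ. Every STZ-A10 library lay below every STZ library, and the log2 difference was -0.45 (SE 0.148, adjusted p 0.996). Pfkm was 12.09, 16.94 and 16.48 in STZ-A10, all below the lowest STZ library (log2 difference -0.48, SE 0.209, adjusted p 0.996). Pkm was 248, 176 and 154 in STZ-A10 and had a log2 difference of 0.39 (SE 0.209, adjusted p 0.996), with overlap. The median log2 difference was 0.05 in the 33 genes and 0.03 in all genes, and 6 of the 7 pentose phosphate genes lay below 0, with a median of -0.16.

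Whether AOS acted differently with and without diabetes was tested as an interaction, (STZ-A10 minus STZ) minus (A10 minus Con). None of the 33 genes passed, and 0% of all genes did. A single gene (3.03%) had an unadjusted p under 0.05, beside 2.86% of all genes, 1.21% above 0 and 1.65% below. This was Slc2a3, with an interaction of 0.80 on the log2 scale (SE 0.215, p 0.00191 from the limma fit, adjusted p 1). Its group means were 25.5 RPKM in Con, 16.8 in A10, 16.3 in STZ and 19.7 in STZ-A10, with Con the highest. The interaction was 0.60 without Con replicate 1. Slc16a3 had the next smallest p (0.67, SE 0.365, adjusted p 1), followed by Gapdh (-0.29, SE 0.197, adjusted p 1).

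The transplants were compared with diabetes alone to ask whether donor microbiota altered the diabetic spleen. In A10-FMT against STZ none of the 33 genes passed, beside 0.00775% of all genes. An unadjusted p under 0.05 was reached by 1 gene (3.03%) and by 17.2% of all genes, 15.2% lower and 1.95% higher. The libraries did not overlap for the same single gene and for 14.4% of all genes, 12.1% lower and 2.33% higher. This was Pfkfb4, the sister enzyme of Pfkfb3. It was 4.89, 5.16 and 3.07 RPKM in A10-FMT and 6.98, 5.67 and 5.52 in STZ (log2 difference -0.41, SE 0.168, adjusted p 0.269). Gpi1, which turns glucose 6-phosphate into fructose 6-phosphate, was 86.61, 100.59 and 58.8 against 133.27, 100.34 and 85.84 (log2 difference -0.38, SE 0.189, adjusted p 0.302). Slc2a1 was 13.26, 16.01 and 9.09 against 23.83, 17.07 and 13.16 (log2 difference -0.46, SE 0.228, adjusted p 0.305). Both overlapped, and both had their lowest value in A10-FMT replicate 3. Without that library the log2 difference was -0.16 for Gpi1, -0.25 for Slc2a1 and -0.22 for Pfkfb4.

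All genes together were displaced in this comparison, with a median log2 difference of -0.15 beside -0.08 in the 33 genes. After quantile normalization the median of the 33 genes was 0.02 and that of all genes -0.01, and after median centring they were 0.09 and 0.02. The median of the 33 genes thus lay above that of all genes in each of these scalings.

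In Con-FMT against STZ none of the 33 genes passed, beside 0.00775% of all genes. Pfkl alone (3.03%) had an unadjusted p under 0.05, beside 5.24% of all genes, 2.66% higher and 2.58% lower. The libraries did not overlap for 6 genes (18.2%, beside 13.2%). Hk2, Pfkl, Pkm and Slc16a3 were higher in Con-FMT (beside 6.94%), and G6pdx and Pfkm lower (beside 6.22%). Pfkl was 18.62, 18.4 and 18.96 RPKM in Con-FMT and 16.79, 15.74 and 14.96 in STZ, a small and even difference (log2 difference 0.23, SE 0.0942, adjusted p 0.918). Slc16a3 was 5.78, 5.03 and 5.02 in Con-FMT, above each of the 3 STZ libraries (log2 difference 0.49, SE 0.258, adjusted p 0.958). Pkm was 179, 192 and 187, likewise above STZ (log2 difference 0.36, SE 0.209, adjusted p 0.964). The median log2 difference was 0.05 in the 33 genes and 0.00 in all genes.

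A10-FMT was compared with Con-FMT to separate the donor's AOS from the transplant itself. None of the 33 genes passed, and 0% of all genes did. An unadjusted p under 0.05 was found for 8 (24.2%, beside 23.6% of all genes). Eno3, Gpi1, Hk2, Pfkfb3, Pgam1 and Pkm were lower in A10-FMT (beside 20.1%), and Hk1 and Pfkm higher (beside 3.49%). The libraries did not overlap for 13 genes (39.4%, beside 29.3%). Of these 11 were lower (Aldoc, Eno1, Eno3, Gpi1, Pfkfb4, Pfkl, Pgam1, Pgd, Pkm, Slc16a3 and Slc2a1, beside 23.9%) and 2 higher (Pfkm and Slc16a1, beside 5.35%). The median log2 difference was -0.21 in the 33 genes and -0.17 in all genes, and -0.08 and -0.01 after quantile normalization. The share of the 33 genes at an unadjusted p under 0.05 was close to that of all genes. Of the 6 genes of lower glycolysis 5 lay below 0, with a median of -0.31.

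Pfkfb3 was 13.15, 18.41 and 6.37 RPKM in A10-FMT and 19.69, 20.72 and 18.08 in Con-FMT (log2 difference -0.69, SE 0.231, adjusted p 0.204). A10-FMT replicate 2 lay within the Con-FMT range and replicate 3 far under it, and without A10-FMT replicate 3 the log2 difference was -0.30 (adjusted p 0.866). Pkm was 133, 165 and 90.3 against 179, 192 and 187 (log2 difference -0.56, SE 0.209, adjusted p 0.204, and -0.32 without A10-FMT replicate 3). Pgam1, which moves the phosphate of phosphoglycerate, was 51.94, 58.57 and 39.67 against 60.75, 69.15 and 65.57 (log2 difference -0.39, SE 0.148, adjusted p 0.204, and -0.23 without that library). Neither Pkm nor Pgam1 overlapped. Pfkm was 20.86, 17.95 and 33.06 against 16.42, 16.48 and 17.15 (log2 difference 0.45, SE 0.209, adjusted p 0.209, and 0.20 without that library). Slc16a1 had a log2 difference of 0.44 (SE 0.258, adjusted p 0.268, and 0.25 without it) and Hk1 one of 0.51 (adjusted p 0.208, and 0.19 without it). The erythroid marker sum stood at 5907, 4215 and 9646 RPKM in A10-FMT, whereas Con-FMT held 3433 to 3848.

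Single libraries decided calls in this comparison. Without A10-FMT replicate 2, the A10-FMT library with the least erythroid marker RNA and the most pancreas marker RNA, 8 of the 33 genes passed (Gpi1, Hk1, Hk2, Ldhb, Pfkfb3, Pfkp, Pgam1 and Pkm), beside 20.4% of all genes. With the erythroid covariate 0 of the 33 passed, and 0 instead of 8 had an unadjusted p under 0.05, beside 4.31% of all genes. The log2 difference of Pfkm was then 0.11 (SE 0.133), that of Hk1 0.12 (SE 0.132), that of Pkm -0.26 (SE 0.165) and that of Pfkfb3 -0.40 (SE 0.201). The erythroid sums of A10-FMT and Con-FMT did not overlap, so the covariate cannot separate erythroid level from group in this comparison. In STZ against Con the same covariate left 0 of the 33 past the threshold, beside 1.64% of all genes. An unadjusted p under 0.05 was reached by 11 (33.3%), beside 17.8%. Slc2a3 stood at a log2 difference of -0.60 (adjusted p 0.0584) and Pfkm at 0.38 (SE 0.119, adjusted p 0.108).

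**Figure D3:**
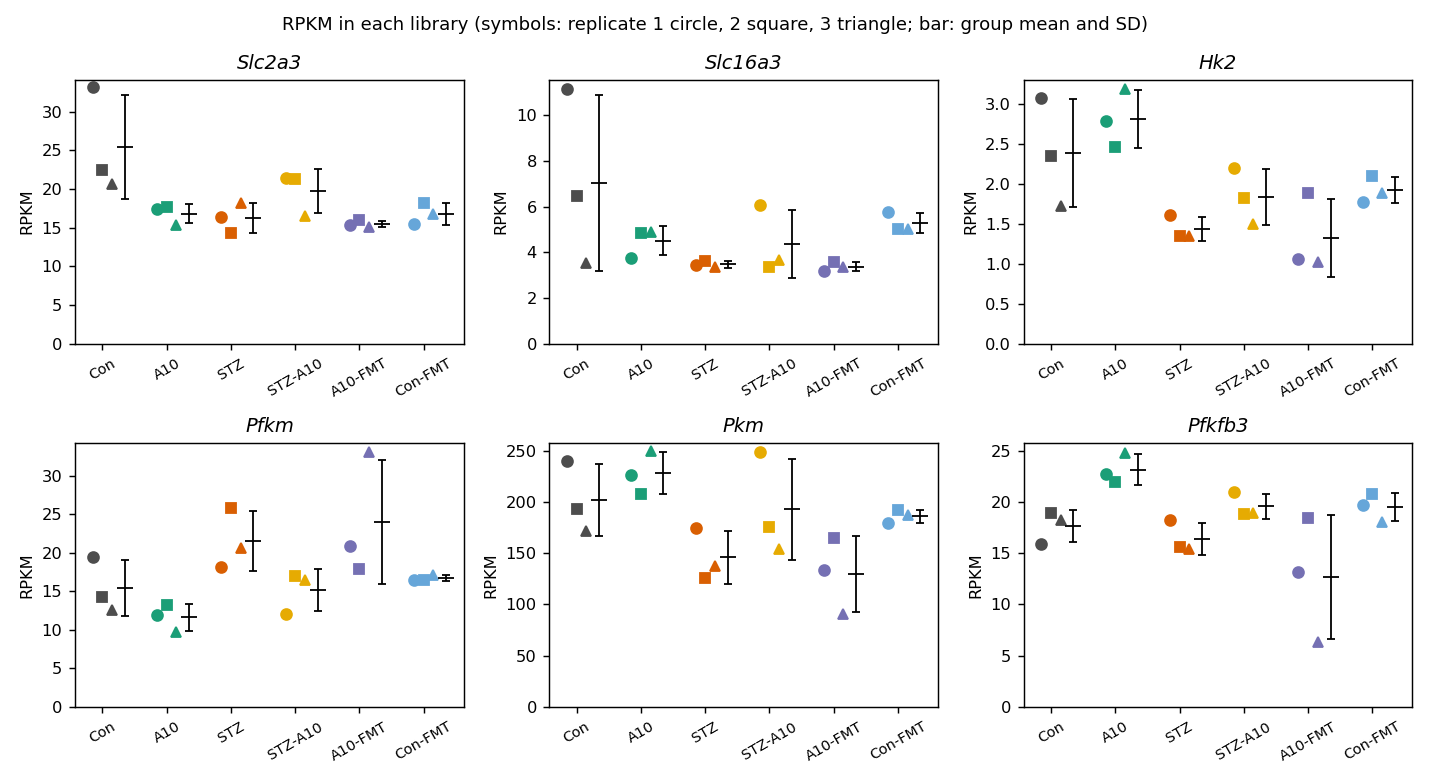
RPKM of 6 genes in each library (symbols by replicate number) with the group mean and SD (bar to the right), on axes that start at 0. Slc2a3, Slc16a3 and Hk2 have wide Con groups, Pfkm is lowest in A10 (9.77 to 13.2) and Pfkfb3 highest there (21.9 to 24.8), and A10-FMT is wide for Pfkm, Pkm and Pfkfb3.

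Across the 6 groups together, limma's moderated F-test passed none of the 33 genes, beside 0.449% of all genes. Of the 33, 12 (36.4%) had an unadjusted p under 0.05, beside 22.6% of all genes. The 12 were Hk1, Hk2, Pfkm, Pfkp, Pgam1, Pgk1, Pkm, Pfkfb3, Pfkfb4, Slc2a3, Rpe and Rpia. The smallest adjusted p belonged to Pfkp (0.105), Hk2 (0.107) and Pgam1 (0.109). Pfkp, the platelet-type phosphofructokinase that lymphoid cells also make, ran from 13.9 ± 3.94 RPKM in A10-FMT and 15.5 ± 2.82 in STZ through 18.2 ± 0.857 in Con-FMT, 18.2 ± 5.05 in STZ-A10 and 20.3 ± 2.005 in Con to 26.8 ± 2.04 in A10. Between neighbours in this order, A10 lay beyond the spread of Con, and the other neighbours did not differ beyond theirs. Hk2 kept nearly the same order, from 1.32 ± 0.491 in A10-FMT to 2.81 ± 0.366 in A10. With the globin genes taken out of the library total, Pfkp and Pgam1 passed the F-test (adjusted p 0.0426 and 0.0424), beside 1.79% of all genes.

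Weighting the libraries changed the counts. When each library was weighted by how well it fitted its group, with the weights estimated gene by gene (an analysis chosen after the data were seen), 13 of the 33 genes passed in STZ against Con, beside 28.8% of all genes. The 13 were Hk1, Hk2, Hk3, Pfkm, Pfkp, Pgam1, Pgk1, Pkm, Ldhb, Slc2a3, Slc16a3, Pgd and Rpe. In A10 against Con 7 passed, beside 10.3% of all genes, in Con-FMT against STZ 7, beside 18.3%, in A10-FMT against Con-FMT 17, beside 47%, and in the F-test 28, beside 77.3%. In the other comparisons 0 passed. The weights ran from 0.112 for A10-FMT replicate 3 to 7.37 for A10-FMT replicate 1, so that these counts rest on few libraries. Weights estimated by maximum likelihood, whose estimate did not converge, passed 22 of the 33 genes in STZ against Con, beside 60.7% of all genes.

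The isoforms of a step were compared as shares of their summed RPKM, which do not depend on the scaling of a library. Hk1 supplied most of the hexokinase transcripts, from 74.05% to 95.67% of the 3 measured hexokinases. Its share was 80.04% ± 6.04 (SD, n = 3) in Con, 79.6% ± 2.73 in A10, 89.3% ± 2.93 in STZ, 86.3% ± 4.95 in STZ-A10, 91.1% ± 4.69 in A10-FMT and 86.2% ± 0.416 in Con-FMT. The STZ libraries (86.94% to 92.59%) lay above the Con libraries (74.05% to 86.13%). Hk3 supplied 16.0% ± 5.69 in Con and 8.40% ± 2.58 in STZ.

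Phosphofructokinase was the step without a leading isoform. Pfkm made up 29.3% ± 5.26 in Con, 20.4% ± 3.07 in A10, 40.7% ± 6.39 in STZ, 30.01% ± 7.53 in STZ-A10, 43.7% ± 10.6 in A10-FMT and 31.2% ± 0.579 in Con-FMT. Pfkp moved the other way, with 46.96% ± 3.45 in A10 and 26.1% ± 8.42 in A10-FMT, while Pfkl stayed between 27.18% and 37.1% in every library. The Pfkm share in A10-FMT lay above that in Con-FMT in each library, and in Con-FMT below that in STZ in each library. Aldoa supplied 99.2% to 99.4% of the aldolase transcripts and Ldha 96.9% to 98.2% of the lactate dehydrogenase transcripts in the group means. Over 72 comparisons of shares, 22 had no overlap, for which the two-sided exact permutation test of 3 against 3 libraries gave 0.1, the smallest p it allows. With random labels a fraction of 0.1 of such comparisons would have no overlap. The 72 were not independent, since the shares of a family are tied to each other and the same groups recur. No such share over all genes was computed, so the count is a description.

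**Figure D4:**
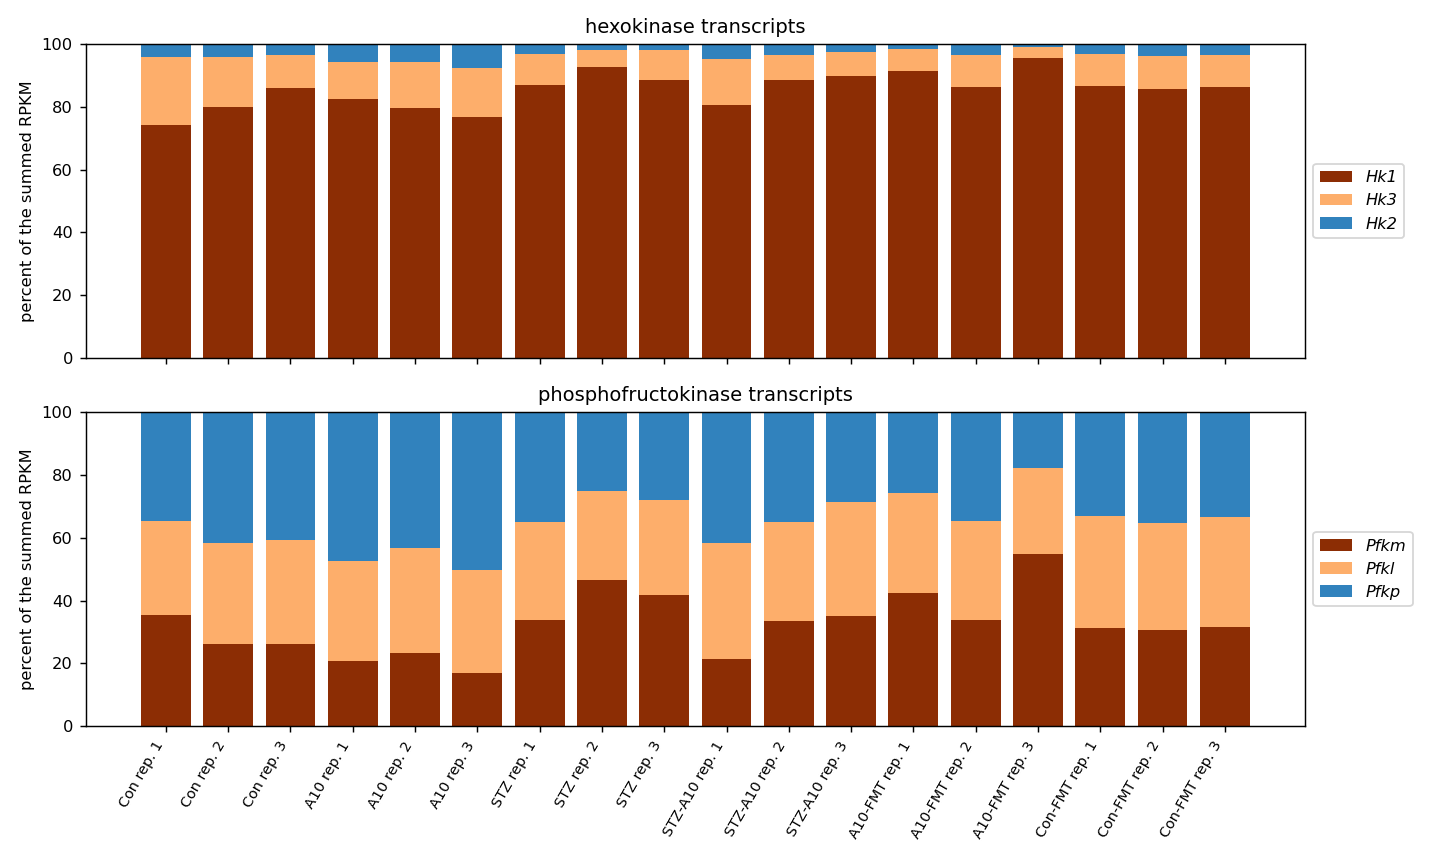
Percent of the summed RPKM of the hexokinases Hk1, Hk2 and Hk3 (top) and of the phosphofructokinases Pfkl, Pfkm and Pfkp (bottom) in each of the 18 libraries. Hk1 takes 74.05% to 95.67% of the first family, and Pfkm takes from 17.1% in A10 replicate 3 to 54.9% in A10-FMT replicate 3 of the second.

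The levels of many of these genes, as of many genes in the table, followed the amount of erythroid RNA in a library. Over the 18 libraries, log2 RPKM was correlated with the log2 sum of the 15 erythroid markers, of 15 neutrophil markers and of 9 B cell markers, 99 relations in all, with 100000 permutations each (two-sided, adjusted over the 99). These relations were chosen after the data were seen. Slc16a1 (chromosome 3, 104638668 to 104658462, plus strand) had r = 0.944 and rho = 0.872 with the erythroid sum (permutation test, adjusted p 0.000141 and 0.00066). It had r = 0.904 without the 2 libraries farthest from the median and 0.956 within groups. Hk1 (chromosome 10, 62268855 to 62379908, minus strand) had r = 0.927 and rho = 0.926 (adjusted p 0.000141 and 0.00066 by permutation), 0.906 without the 2 libraries and 0.878 within groups. Pfkm had r = 0.888 and rho = 0.826 (adjusted p 0.000141 and 0.00119 by permutation), 0.822 and 0.857. Taldo1 was weaker, with r = 0.738 and rho = 0.682 (adjusted p 0.00191 and 0.0111 by permutation), 0.574 and 0.645. These 4 were the genes with a positive relation past the threshold by both measures. As a description over all genes tested other than the markers and globins, r and rho were both at 0.5 or above for 5 of the 33 genes (15.2%) and for 9.94% of all genes. With the globin genes out of the total these shares were 18.2% and 15.5%.

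A negative relation with the erythroid sum passed by both measures for 16 genes, and for 12 of them every check kept r at -0.5 or beyond. Negative relations were common in the table, with r and rho both at -0.5 or beyond for 16 of the 33 genes (48.5%) and for 45.7% of all genes, so the share of the 33 was near that of all genes. With the globin genes out of the total the shares were 39.4% and 25.9%. The 12 were Gpi1, Pfkp, Aldoa, Aldoc, Pgam1, Eno1, Eno3, Pkm, Ldhb, Pfkfb3, Slc2a1 and Pgls. Pfkp had r = -0.875, Slc2a1 -0.864, Aldoa -0.863, Gpi1 -0.862, Pgam1 -0.859 and Pkm -0.835. RPKM values are relative to the total of a library, in which the globin genes are counted. With the globin genes out of the total, r was -0.794 for Pfkp, -0.781 for Slc2a1, -0.802 for Aldoa and -0.744 for Pkm, and 0.953 for Slc16a1 and 0.948 for Hk1. The B cell sum gave the mirror image, with 10 positive relations past the threshold by both measures and 4 negative ones, the latter with Hk1, Pfkm, Slc16a1 and Taldo1. At 0.5 or beyond by both measures, the positive share was 33.3% of the 33 genes and 38.9% of all genes, and the negative share 12.1% and 9.43%. Which cells carried each transcript was not measured.

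**Figure D5:**
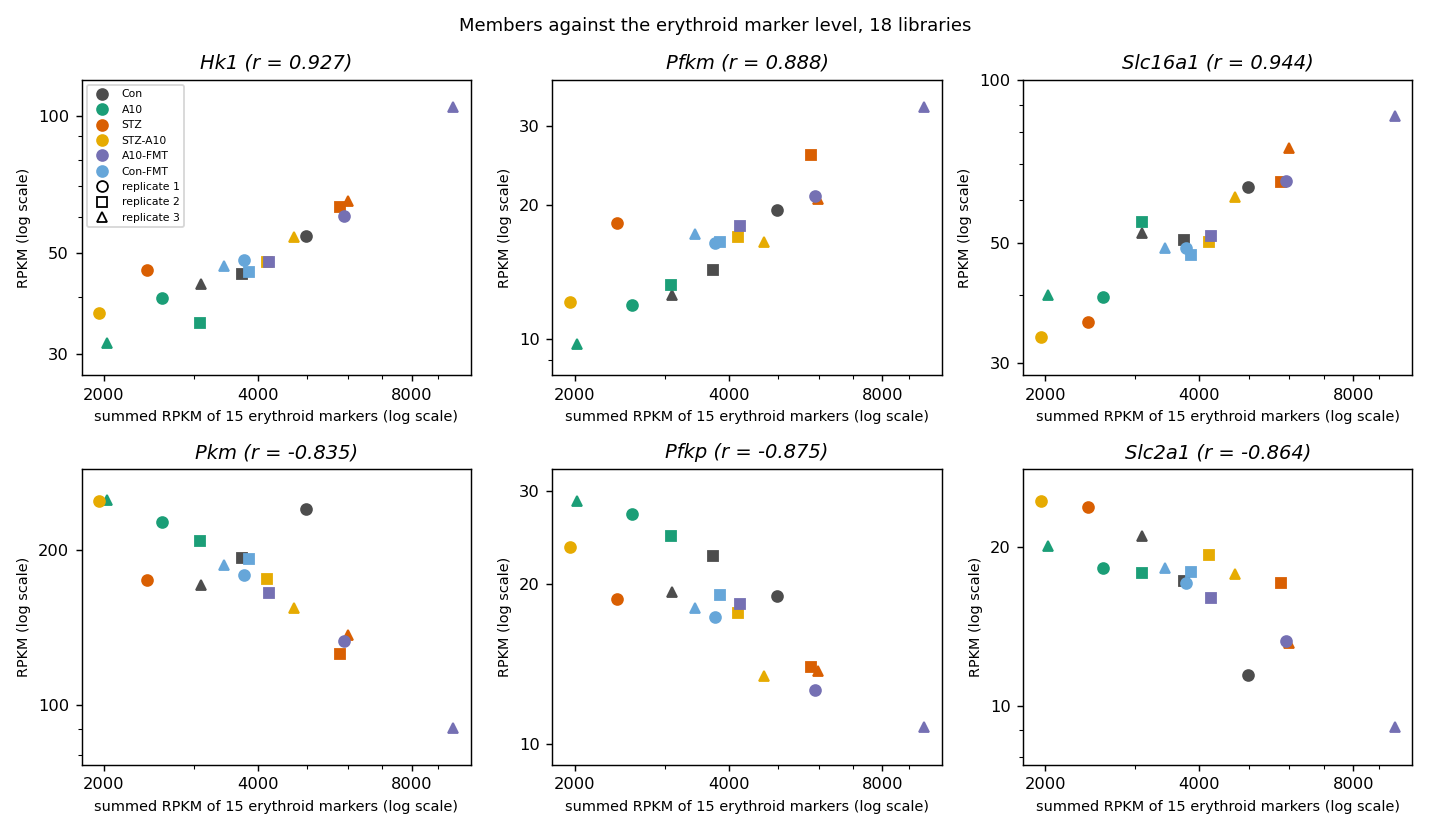
RPKM of 6 genes against the summed RPKM of 15 erythroid markers in 18 libraries (both axes logarithmic; colour, group; shape, replicate number). Hk1, Pfkm and Slc16a1 climb with the marker sum across and within groups (r = 0.927, 0.888 and 0.944), while Pkm, Pfkp and Slc2a1 decline with it (r = -0.835, -0.875 and -0.864).

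The neutrophil sum was related by both measures to a single gene, Hk3, with r = 0.885 and rho = 0.55 (permutation test, adjusted p 0.00033 and 0.0496). At 0.5 or above by both measures, the positive share was 3.03% of the 33 genes and 1.81% of all genes. With the globin genes out of the total it was 3.03% and 2.47%, so a single gene was near the share of all genes. For Hk3, r was 0.541 without the 2 farthest libraries, Con replicates 1 and 2, and 0.928 within groups. In 4 others a high r rested on those 2 libraries. Without them r went from 0.756 to 0.117 for Pgd, from 0.748 to 0.0955 for Slc2a3, from 0.735 to 0.1 for Slc16a3 and from 0.636 to -0.00535 for G6pdx.

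The promoters of these genes were read for letters that erythroid and hypoxia factors are known to bind. RefSeq windows of 300 bases (GRCm38.p6) were given for 46 starts of 32 genes. The GATA motif was searched as AGATAA or AGATAG and, with the other starting letter, as TGATAA or TGATAG. It occurred on either strand in 10 of the 46 windows (21.7%), beside 29.8% of all 32851 windows and 19.7% of the 12873 windows of tested genes. The letters ACGTG or GCGTG, the core of the hypoxia response element, occurred in 37 windows (80.4%) of 29 genes, beside 43.8% of all windows and 60% of those of tested genes. The core also lies inside CACGTG, which Myc and other E-box factors bind. The upstream bases of Pfkm and Slc16a1 are shown from among the 4 genes with a positive relation to the erythroid sum. Those of Slc16a3 are shown because it was the transporter with the largest difference in STZ, and those of Ldha because it is a classical hypoxia target. Capitals mark both kinds of letters, on either strand, and each run holds 250 bases that end just before an annotated start on the plus strand. CACGTG holds the core on both strands and was counted once for each strand, so core matches can outnumber the capital stretches. Ldha has another annotated start, which is not shown and has 1 core match in its 250 upstream bases.

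Pfkm, chr15:98092339-98092588, with 3 GATA and 2 core matches, of 4 annotated starts the one with the most GATA letters: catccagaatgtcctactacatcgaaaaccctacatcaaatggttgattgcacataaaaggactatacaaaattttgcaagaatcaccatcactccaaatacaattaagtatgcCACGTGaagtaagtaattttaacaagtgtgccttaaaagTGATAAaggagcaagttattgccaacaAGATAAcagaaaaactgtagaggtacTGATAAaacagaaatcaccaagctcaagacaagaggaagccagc
Slc16a1, chr3:104638414-104638663, with 1 GATA and 4 core matches: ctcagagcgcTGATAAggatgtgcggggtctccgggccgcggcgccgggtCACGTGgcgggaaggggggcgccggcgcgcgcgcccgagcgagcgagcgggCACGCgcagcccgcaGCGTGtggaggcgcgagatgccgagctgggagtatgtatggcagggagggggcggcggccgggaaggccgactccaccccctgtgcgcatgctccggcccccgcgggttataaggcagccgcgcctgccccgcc
Slc16a3, chr11:120948817-120949066, with 0 GATA and 2 core matches: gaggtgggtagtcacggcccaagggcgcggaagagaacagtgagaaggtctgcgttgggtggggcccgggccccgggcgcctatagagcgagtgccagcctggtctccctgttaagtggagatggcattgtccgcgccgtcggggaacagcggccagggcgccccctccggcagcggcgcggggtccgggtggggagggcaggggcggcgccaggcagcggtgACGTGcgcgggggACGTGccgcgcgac
Ldha, chr7:46845554-46845803, with 0 GATA and 5 core matches: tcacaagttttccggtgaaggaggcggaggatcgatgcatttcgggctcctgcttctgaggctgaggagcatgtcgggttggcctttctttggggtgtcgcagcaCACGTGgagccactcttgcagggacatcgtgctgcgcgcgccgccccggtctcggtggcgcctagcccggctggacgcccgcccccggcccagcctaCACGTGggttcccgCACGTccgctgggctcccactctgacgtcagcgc

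Hk1, whose levels were as close to the erythroid sum as those of Slc16a1, had 0 GATA matches in its 2 windows. Taldo1, the remaining gene with a positive relation, had 0 in its 250 upstream bases. GATA letters also lay upstream of genes with a negative relation, with 2 matches at a start of Aldoa and 1 at a start of Pkm. A match of letters in such a window is a description of the sequence and not a site of binding.

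Genes next to these pathways were taken from lists written for this purpose. They covered other isozymes and side branches (17 genes, 12 tested), gluconeogenesis (7, 5 tested), glycogen (11, 10 tested), pyruvate entry into mitochondria (12, all tested), other hexose and monocarboxylate transporters (12, 7 tested), other pentose phosphate genes (8, 6 tested), regulators such as Hif1a, Myc and Txnip (13, 11 tested) and other hypoxia-inducible genes (12, all tested). In the 6 pairwise comparisons and the interaction, 0 of these genes passed in limma. In the F-test over the 6 groups, Pdk4 (adjusted p 0.0159) and Fbp1 (adjusted p 0.04) passed. Fbp1 had met the filter for testing only through Con and A10-FMT. The 10 glycogen genes all had fitted values below 0 in STZ against Con (median log2 difference -0.26, beside -0.01 in all genes), and the 11 regulators all did in A10-FMT against STZ (-0.28, beside -0.15). The other medians in STZ against Con were -0.09 for other isozymes, -0.63 for gluconeogenesis, 0.02 for pyruvate entry, 0.04 for other transporters, 0.17 for other pentose phosphate genes, 0.06 for regulators and -0.11 for other hypoxia-inducible genes.

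Pdk4, the kinase that shuts pyruvate dehydrogenase when fuel shifts from glucose to fat, was 10.11, 13.92 and 4.13 RPKM in STZ and 14.71, 12.13 and 15.3 in STZ-A10. It was 1.71, 2.88 and 2.65 in Con, 2.67, 2.97 and 2.86 in A10, 2.65, 2.31 and 1.45 in A10-FMT and 2.52, 2.75 and 5.41 in Con-FMT. Every STZ-A10 library and STZ replicates 1 and 2 lay above all the others, while STZ replicate 3 lay below Con-FMT replicate 3, and A10-FMT lay within or under the range of the non-diabetic groups. The log2 difference was 1.49 in STZ against Con (SE 0.312, adjusted p 0.0635), -1.61 in A10-FMT against STZ (SE 0.312, adjusted p 0.08) and -1.11 in Con-FMT against STZ (adjusted p 0.798). Pdk1, its relative among the 33 genes and a hypoxia target, was 5.91 ± 1.58 RPKM in Con and 7.42 ± 2.10 in STZ, a difference within the spread.

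Fbp1, which runs the phosphofructokinase step backwards in gluconeogenic tissue, was 1.18 to 3.61 RPKM in Con, 1.77 to 5.14 in A10-FMT and at most 0.99 in the other groups. Only Con and A10-FMT, where it was high, brought it past the filter for testing, so its F-test is given as a description. The summed RPKM of 13 liver markers was 65.97 to 367 in Con, 173 to 469 in A10-FMT and 57.3 to 144 elsewhere, and their part in this result was not tested. Of the regulators, Txnip and Myc are given because of their values. Txnip, an inhibitor of glucose uptake that is induced by glucose, was 103, 140 and 225 RPKM in Con and 158.5, 149.89 and 158.71 in A10. It was 337, 253 and 206 in STZ and 355, 267 and 322 in STZ-A10. With transplants it was 147, 156 and 82.0 in A10-FMT and 179, 181 and 241 in Con-FMT. Con-FMT replicates 1 and 2 lay below every STZ library, and replicate 3 lay within the STZ range. The log2 difference of Txnip was 0.81 in STZ against Con (adjusted p 0.229) and -1.07 in A10-FMT against STZ (adjusted p 0.145), and neither passed. Myc was 30.9 ± 5.97 RPKM in Con and 55.7 ± 9.32 in STZ, with every STZ library (48.2 to 66.2) above every Con library (26.2 to 37.6). The log2 difference was 0.84 (SE 0.173, adjusted p 0.0635).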

How the data were processed

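RNA of mouse spleen was sequenced in 18 libraries, 3 in each of 6 groups. The authors deposited 1 table of RPKM per gene, without read counts; the submitters' processing notes name Bowtie 0.12.2 and mm10, while the methods name SOAPaligner. Of 19326 lines, 6 with repeated names were left out. RPKM was taken as log2(RPKM + 1), so fold changes of low genes are understated. Genes with an RPKM of at least 1 in at least 3 libraries (12905) were tested with limma 3.58.1 (R 4.3.3), with a trend, over all 6 groups, two-sided and with Benjamini-Hochberg adjustment over all genes tested. The method was tested on simulated data. Groups came from the labels. Genes named were those of smallest p in each comparison (3), the leading gene of each role, and genes of neighbouring pathways past the threshold. Txnip and Myc, which did not pass, were added because of their values. The genes and lists were chosen with earlier results of these data known. Positions are from GENCODE M21 (GRCm38), copies from minimap2 2.31 and promoters from RefSeq. Alternatives covered scaling, filter, pseudocount, weights, a replicate block, the study's threshold and leaving out each library.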

Additional observations from a re-analysis of the deposited data

How the results depend on the processing

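In the fits as described, 0 of the 33 genes passed in each of the 8 tests. Of the recomputed counts 230 were also 0 and 17 were not, and the cause was not tested. The counts at the study's threshold could only be 0, since that threshold is stricter and was applied to the same fits. Weighting the libraries gave 22 genes in STZ against Con (beside 60.7% of all genes), 21 in A10 against Con (37.1%), 14 in STZ-A10 against STZ (27%), 13 in A10-FMT against STZ (51.6%), 19 in Con-FMT against STZ (38.8%), 22 in A10-FMT against Con-FMT (66%), 2 in the interaction (15.3%) and 33 in the F-test (97.8%), but this estimate of the weights did not converge and ran from 0.0462 to 424. Weights estimated gene by gene, added after the data were seen, gave 13, 7, 0, 0, 7, 17, 0 and 28 in the same order. Under the first weighting, 3 values in A10-FMT against STZ reversed: Pfkm was -0.25, Aldoc 0.25 and Tkt -0.13 on the log2 scale. With the globin genes out of the total, the F-test passed 2 genes. Leaving out 1 library at a time gave 0 to 2 genes in STZ against Con (2 without Con replicate 3, Slc2a3 and Slc16a3, beside 0.971% of all genes), 0 to 8 in A10-FMT against Con-FMT and 0 to 7 in the F-test (8 and 7 without A10-FMT replicate 2, beside 20.4% and 6.31%), and 0 in the other comparisons. With a replicate block the count was 0 in all 8 tests. Of the same-numbered libraries, 3 of 18 pairs had a correlation of deviations over 0.1 (range -0.385 to 0.571), and 4 of 18 libraries correlated best with their own number. In STZ-A10 against STZ the correlation was 0.571 for replicate 1 and 0.429 for replicate 3, both best with their own number. Whether same-numbered libraries shared a batch cannot be told from these correlations. No read counts were used, so depth sets no stated limit.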
